A study of Mus musculus with 12 samples.

Results

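Lower glycolysis turns fructose-1,6-bisphosphate into pyruvate, and lactate dehydrogenase and a lactate carrier finish the route when pyruvate is not burned in mitochondria. The 10 genes described here code for that stretch: the aldolases Aldoa and Aldoc, triosephosphate isomerase (Tpi1), glyceraldehyde-3-phosphate dehydrogenase (Gapdh), phosphoglycerate kinase (Pgk1), phosphoglycerate mutase (Pgam1), the enolases Eno1 and Eno2, lactate dehydrogenase A (Ldha) and the lactate and proton exporter Slc16a3, also called Mct4. They were picked by gene name from an expression table of 23440 rows, and all 10 were found. All 10 also passed a filter of at least 1 TPM, a transcript's length-corrected share scaled to a fixed total, in at least 3 of the 12 libraries, which 10822 rows passed.

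The study sequenced RNA from bone-marrow-derived macrophages (BMDM) of mice in the C57BL/6J background (C57/BL6 in the labels), grown for 7 days in medium with 30% L929-conditioned medium. Wild-type (WT) cells came from Bmal1 f/f mice, and knockout (M-BKO) cells from Bmal1 f/f mice that also carried Lyz2-Cre, a Cre recombinase expressed in myeloid cells from the Lyz2 locus. The mice were matched for gender and age, between 8 and 24 weeks. All cultures, the controls included, were primed overnight with Ifn-γ, and the M1 groups then received LPS for 8 h. Each of the 4 groups (WT control, WT M1, M-BKO control and M-BKO M1) had 3 libraries. The labels call them biological replicates and the sources used here do not give the number of mice per genotype, so p-values measure the spread between these cultures, which may be partly technical. In such bulk samples, fewer cells of a type and less RNA per cell cannot be told apart.

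Resting macrophages make much of their ATP in mitochondria, whereas macrophages activated by Ifn-γ and LPS are known to take up more glucose and release lactate. The transcription factor Hif-1 is known to bind many genes of this route at sites with the core letters ACGTG or GCGTG. Bmal1, the circadian clock factor encoded by Arntl, binds with Clock to the E-box CACGTG. The comparisons asked how these 10 transcripts differed with M1 activation and between the M-BKO and WT genotypes, and which isozyme carried each step.

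Values are the TPM deposited by the authors, a share scaled to the same total in each library, so the depth of each library is unknown. Between 13315 and 13574 rows were above 0 per library. Arntl was 7.50 ± 0.232 TPM (SD, n = 3) in WT control and 2.24 ± 0.252 TPM in M-BKO control cultures. After M1 it was 5.36 ± 0.502 TPM in WT and 3.18 ± 0.189 TPM in knockout cells. Lyz2 took 3.18 to 3.46% of all TPM in WT control libraries, 1.48 to 1.51% in WT M1 and at most 0.00788% in all 6 M-BKO libraries. The 6 macrophage markers found of 7 listed were each above 1 TPM in all 12 libraries, with a sum of 3715 to 5109 TPM. Marker sums for 5 other blood cell types (neutrophils, T cells, B cells, erythroid cells and dendritic cells) were at most 10.7 TPM. The stromal and endothelial list summed to 5.28 to 8.34 TPM in controls and 37.2 to 56.5 TPM in M1 libraries, nearly all of it Kdr, while Col1a1 stayed at or under 0.339 TPM. The part of these cells in the results was not tested.

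Among the 10 genes, Gapdh was the most abundant transcript in all 12 libraries and Aldoa the next. Gapdh stood at 2166, 2079 and 2031 TPM in WT control cultures, and Aldoa at 1914, 1871 and 1646 TPM. The ranges of these 2 genes did not overlap in that group. Ldha, Tpi1 and Pgk1 followed at 1346 to 1389, 1255 to 1325 and 1245 to 1428 TPM, and their ranges overlapped, so that their order differed between libraries. Pgam1 was lower, at 958 to 980 TPM. The row named Eno1 held only 304 to 348 TPM, and a second row, described below, covers the same locus. Slc16a3 held 107 to 133 TPM, Aldoc 18.0 to 20.1 TPM and Eno2 1.74 to 2.09 TPM. Together with the second enolase row, the 10 genes made up 1.04 ± 0.0200% of all TPM in WT control and 1.25 ± 0.0290% in WT M1 cultures (SD, n = 3). The corresponding shares in M-BKO cultures were 0.990 ± 0.0245% and 1.20 ± 0.0142%.

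**Figure D1:**
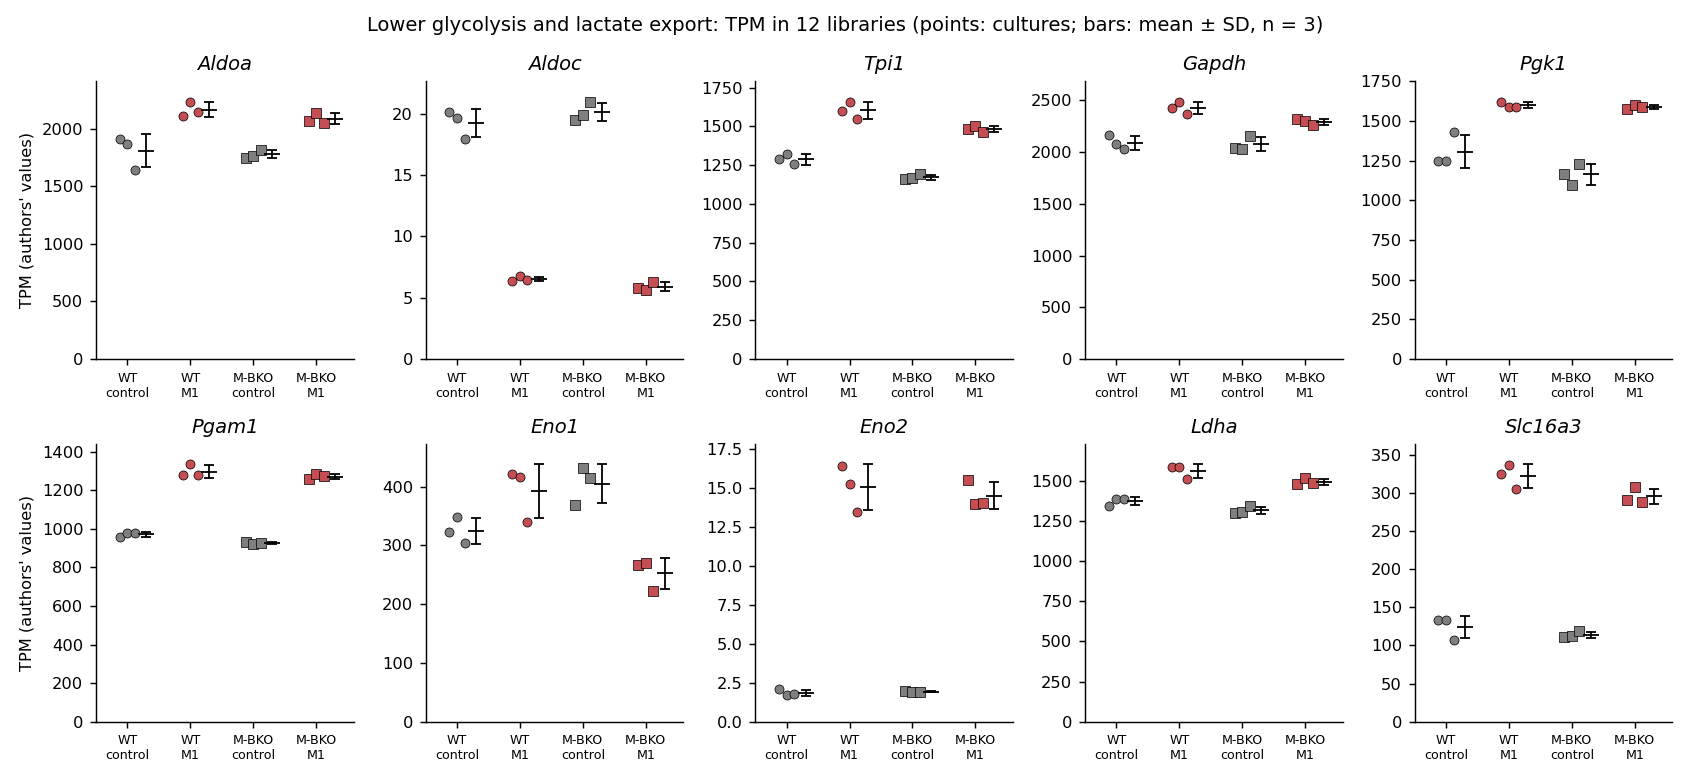
TPM of each of the 10 genes (vertical axes, each from 0) in the 4 groups, with WT as circles, M-BKO as squares, controls in grey and M1 in red; points are cultures and bars show the mean ± SD (n = 3). Eno2 and Slc16a3 were high in all 6 M1 libraries and Aldoc was low in them, while the Eno1 row was lowest in M-BKO M1, at 222 to 270 TPM.

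M1 activation was compared with priming alone within each genotype. Slc16a3 and Eno2 rose and Aldoc fell in both genotypes, while the abundant enzymes of the route were higher by under 1.5-fold. A gene was called when its adjusted p, from limma with Benjamini-Hochberg adjustment over the 10822 genes, was under 0.05 and its fold change was over 1.5, both on the log2(TPM + 1) scale. By that rule, 2 of the 10 genes were higher and 1 lower in WT, and 2 were higher and 2 lower in M-BKO. Over all genes, 12.9% were called higher and 41% lower in WT, and 12.3% higher and 42.3% lower in M-BKO. The median log2 fold change of all genes was -0.43 in WT and -0.45 in M-BKO. The median of the 10 genes was 0.28 and 0.29.

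Slc16a3 (mm10, chromosome 11, 120948484 to 120959000, plus strand) encodes the low-affinity monocarboxylate transporter of highly glycolytic cells. Its level was 133, 133 and 107 TPM in WT control and 324, 336 and 305 TPM in WT M1 cultures. In M-BKO cells it was 111, 113 and 118 TPM in control and 291, 307 and 288 TPM in M1 cultures. The control and M1 libraries did not overlap in either genotype. The log2 fold change was 1.37 in WT (SE 0.0695, adjusted p = 1.7e-10) and 1.36 in M-BKO (SE 0.0695, adjusted p = 1.8e-10). The response differed between genotypes by -0.0075 (95% interval -0.22 to 0.20, adjusted p = 0.98).

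Eno2 (chromosome 6, 124760055 to 124769509, minus strand), the enolase known best from neurons, had the largest fold change of the 10 genes, from a low level. It was 2.09, 1.74 and 1.79 TPM in WT control and 16.4, 15.3 and 13.5 TPM in WT M1 cultures. In M-BKO cells it was 2.00, 1.93 and 1.88 TPM in control cultures, and 14.5 ± 0.871 TPM in M1 cultures (SD, n = 3) with the highest at 15.5 TPM. All 6 M1 libraries lay above all 6 control libraries. The log2 fold change was 2.48 in WT (SE 0.0810, adjusted p = 1.5e-12) and 2.40 in M-BKO (SE 0.0810, adjusted p = 2.0e-12). The pseudocount of 1 TPM understates the change of a gene this low.

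Aldoc (chromosome 11, 78324198 to 78326760, plus strand), the aldolase known best from brain, went the other way. It was 20.1, 19.7 and 18.0 TPM in WT control and 6.35, 6.73 and 6.47 TPM in WT M1 cultures. In M-BKO cells it was 19.5, 19.9 and 21.0 TPM in control and 5.83, 5.59 and 6.30 TPM in M1 cultures. The M1 libraries lay below the controls without overlap in both genotypes. The log2 fold change was -1.43 in WT (SE 0.0640, adjusted p = 4.4e-11) and -1.61 in M-BKO (SE 0.0640, adjusted p = 1.1e-11).

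The promoters of these 3 genes and of Ldha are shown because they belong to the strongest M1 responses and to the gene with the most matches to the Hif-1 core letters. Each runs from 250 bases before to 50 bases after a RefSeq start site (GRCm38.p6), in the direction of the gene, with each ACGTG or GCGTG in capitals on either strand. A match on the minus strand appears as its reverse complement, and the E-box CACGTG holds ACGTG on both strands. The Aldoc and Ldha windows are those whose start sites coincide with the start of the deposited row. The Slc16a3 window lies wholly inside its deposited row, which starts at 120948484. The Eno2 window lies wholly before its row, which starts at 124769509 on the minus strand. Positions below are relative to the RefSeq start site, not to the start of the row.
Slc16a3, chr11:120948817-120949116, plus strand: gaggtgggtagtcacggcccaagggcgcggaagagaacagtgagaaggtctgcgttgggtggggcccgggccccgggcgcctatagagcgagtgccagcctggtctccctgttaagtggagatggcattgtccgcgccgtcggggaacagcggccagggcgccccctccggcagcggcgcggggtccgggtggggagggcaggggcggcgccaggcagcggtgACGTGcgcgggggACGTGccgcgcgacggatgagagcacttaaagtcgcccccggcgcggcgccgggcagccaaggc
Eno2, chr6:124769624-124769923, minus strand: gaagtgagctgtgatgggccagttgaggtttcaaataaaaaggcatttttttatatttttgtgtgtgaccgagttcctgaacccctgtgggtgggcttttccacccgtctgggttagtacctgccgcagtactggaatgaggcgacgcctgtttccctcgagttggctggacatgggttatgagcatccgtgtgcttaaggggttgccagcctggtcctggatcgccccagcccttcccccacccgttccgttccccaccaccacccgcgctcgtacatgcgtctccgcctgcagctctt
Aldoc, chr11:78323948-78324247, plus strand: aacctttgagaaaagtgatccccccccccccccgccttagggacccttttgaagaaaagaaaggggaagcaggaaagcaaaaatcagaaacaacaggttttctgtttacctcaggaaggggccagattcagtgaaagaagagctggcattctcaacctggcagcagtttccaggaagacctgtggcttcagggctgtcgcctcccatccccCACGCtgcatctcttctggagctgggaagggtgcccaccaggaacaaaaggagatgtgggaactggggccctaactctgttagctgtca
Ldha, chr7:46845554-46845853, plus strand: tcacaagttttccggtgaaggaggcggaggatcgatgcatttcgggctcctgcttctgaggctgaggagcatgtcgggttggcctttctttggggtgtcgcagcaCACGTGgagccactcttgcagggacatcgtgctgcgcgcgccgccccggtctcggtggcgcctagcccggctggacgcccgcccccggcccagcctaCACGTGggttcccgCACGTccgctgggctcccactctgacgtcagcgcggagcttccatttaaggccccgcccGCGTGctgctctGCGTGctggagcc
The Slc16a3 window held ACGTG at -27 and -14 relative to the start site. The Ldha window held the E-box CACGTG 2 times, a further ACGTG on the minus strand at -34, and GCGTG at 26 and 38. The Eno2 window held neither core, and the Aldoc window held 1 GCGTG on the minus strand at -39. A second Aldoc window, not shown (chr11:78322823-78323122), held ACGTG at 28 and GCGTG at -50 and 12. The second Ldha window, also not shown, held GCGTG at -59 and 41.

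Across the 16 RefSeq promoters of the 10 genes, 8 promoters of 7 genes held ACGTG and 9 promoters of 5 genes held GCGTG. Either core was in 13 promoters of 8 genes. Among all 32851 mouse promoter windows of this length, ACGTG was found in 19.6%, GCGTG in 32.4% and either in 43.8%. CACGTG was found in 1 of the 16 windows, that of Ldha, and in 7.15% of all windows. Several of the 16 windows overlap, since a gene with several start sites has several windows. A match is a description of the letters, and no match says only that these letters are not in the window.

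The 6 abundant enzymes Aldoa, Tpi1, Gapdh, Pgk1, Pgam1 and Ldha were higher in every M1 library than in every control library of the same genotype, by 1.11-fold to 1.37-fold. Pgam1, which moves the phosphate of 3-phosphoglycerate, had the largest of these shifts in WT, from 958, 977 and 980 TPM to 1281, 1335 and 1277 TPM (log2 0.42, SE 0.0299, adjusted p = 8.2e-09). In M-BKO it went from 931, 922 and 928 TPM to 1256, 1284 and 1273 TPM (log2 0.46, SE 0.0299, adjusted p = 2.9e-09). The replicates of Pgam1 were close to each other, and the difference far exceeded their spread.

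Ldha, which reduces pyruvate to lactate, was 1346, 1386 and 1389 TPM in WT control and 1584, 1587 and 1514 TPM in WT M1 cultures. In M-BKO it was 1299, 1306 and 1343 TPM in control and 1481, 1515 and 1487 TPM in M1 cultures. Its log2 fold change was 0.18 in both genotypes (SE 0.0316, adjusted p = 7.9e-05 in WT and 8.4e-05 in M-BKO). At 1.14-fold in each genotype on the TPM as deposited, Ldha was below the fold threshold, which depends on the scaling described below.

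Pgk1, which makes the first ATP of the route, was 1245, 1246 and 1428 TPM in WT control and 1621, 1586 and 1587 TPM in WT M1 cultures (log2 0.29, adjusted p = 1.0e-04). In M-BKO it was 1164, 1097 and 1228 TPM in control and 1575, 1600 and 1585 TPM in M1 cultures (log2 0.45, adjusted p = 1.4e-06). Tpi1, which interconverts the triose phosphates, was 1287, 1325 and 1255 TPM in WT control and 1600, 1660 and 1548 TPM in WT M1 cultures (log2 0.31, adjusted p = 8.1e-07). Both genes thus passed the adjusted p threshold at a fold under 1.5. Tpi1 in M-BKO went from 1160, 1166 and 1191 TPM to 1481, 1503 and 1467 TPM (log2 0.34, adjusted p = 3.3e-07). The end of the Tpi1 row overlaps Spsb2 on the opposite strand (at most 34.2 TPM), and no source used here says whether the counting used strand.

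Gapdh, often used as a reference gene in macrophage work, was 2425, 2489 and 2371 TPM in WT M1 cultures against the control values above (log2 0.22, adjusted p = 5.9e-05). In M-BKO it went from 2045, 2027 and 2152 TPM to 2319, 2305 and 2264 TPM (log2 0.15, adjusted p = 0.0016). Aldoa reached 2113, 2237 and 2150 TPM in WT M1 cultures (log2 0.26, adjusted p = 1.8e-04). In M-BKO Aldoa went from 1750, 1767 and 1817 TPM to 2073, 2141 and 2048 TPM (log2 0.23, adjusted p = 5.3e-04).

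Without regard to any test, 8 of the 10 genes were higher and 1 lower without overlap in WT, against 21.8% and 62.6% of all genes, and 8 were higher and 2 lower in M-BKO, against 22.7% and 66.5%. Counted by adjusted p alone, 9 of the 10 genes were higher and 1 lower after M1 in WT, against 22.4% of all genes higher and 63.6% lower. In M-BKO 8 were higher and 2 lower, against 21.2% and 64.5%. TPM is a share, and most genes took a smaller share after M1. Scaling each library by the median ratio to a common reference brought the median of all genes to 0 within 0.003 and the median of the 10 genes to 0.76 in WT and 0.78 in M-BKO. On that scale 9 of the 10 genes were called higher and Aldoc lower in WT, against 22.9% of all genes called higher and 21.1% lower. In M-BKO 8 were called higher and Aldoc lower, against 22.4% and 22.1%, and the Eno1 row was at -0.19 (adjusted p = 0.084). Ldha was then at 0.66 and 0.68 on the log2 scale in WT and M-BKO, past the fold threshold. How many of the 8 or 9 genes are called therefore rests on the scaling, while the calls for Eno2, Slc16a3 and Aldoc were made on both scales.

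**Figure D2:**
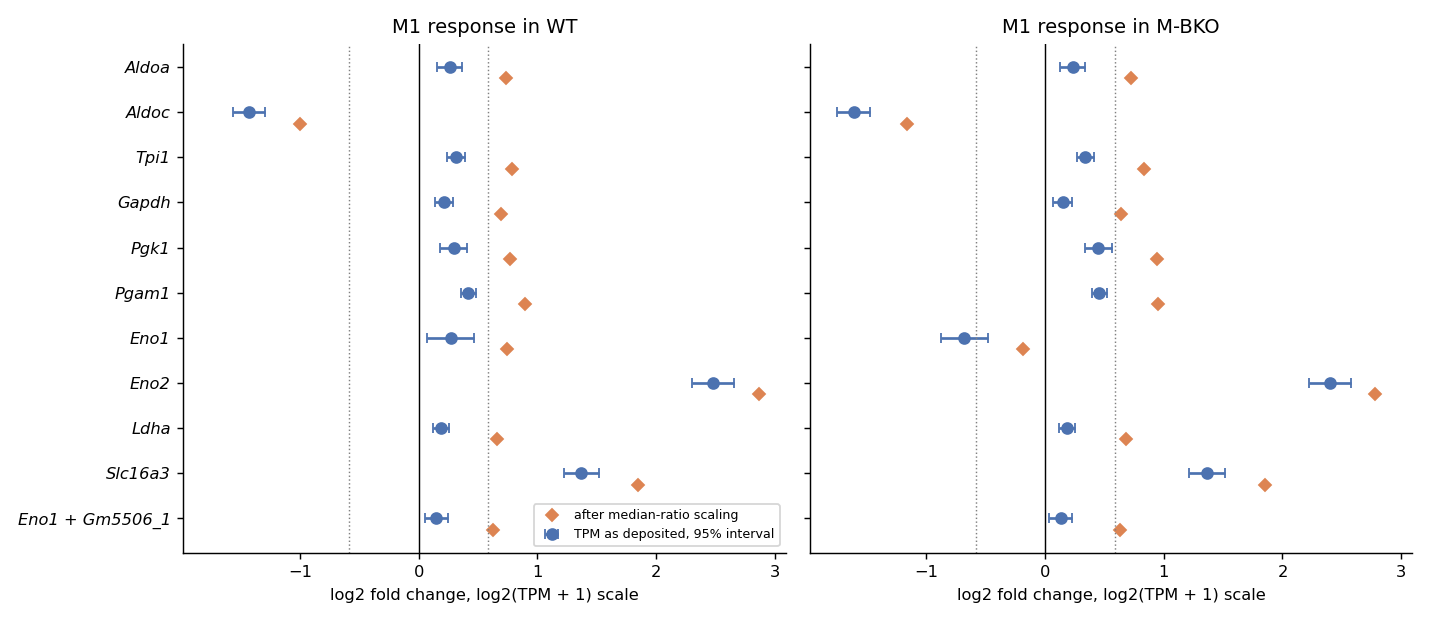
Log2 fold change of M1 over control on the log2(TPM + 1) scale (horizontal axis) for the 10 genes and the summed enolase rows (vertical axis), in WT (left) and M-BKO (right). Blue points with 95% intervals use TPM as deposited, orange diamonds use median-ratio scaling, and dotted lines mark 1.5-fold; Eno2 (2.48 and 2.40), Slc16a3 (1.37 and 1.36) and Aldoc (-1.43 and -1.61) lie beyond them on both scales, and the Eno1 row in M-BKO (-0.68) turns to 0.13 once the rows are summed.

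Enolase 1 needs its own account. The Eno1 row (mm10, chromosome 4, 150237197 to 150248873, plus strand) covers the same stretch as a second row, Gm5506_1 (150237324 to 150248873, plus strand). RefSeq gives Gm5506 as a synonym of Eno1b, a near-identical copy. In the GENCODE transcripts, 49.5% of the distinct 50-base words of Eno1 also occur in transcripts of other genes, and 48.4% in Eno1b. Reads with up to 5 matching places were kept by the authors, and no source used here says how such reads were divided between rows.

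Alone, the Eno1 row was 323, 348 and 304 TPM in WT control and 422, 416 and 341 TPM in WT M1 cultures. It was 369, 433 and 415 TPM in M-BKO control and 267, 270 and 222 TPM in M-BKO M1 cultures. The WT groups overlapped, whereas in M-BKO every M1 library was below every control. The log2 fold change was 0.27 in WT (SE 0.0921, adjusted p = 0.014) and -0.68 in M-BKO (SE 0.0921, adjusted p = 7.5e-06). The interaction was -0.95 (SE 0.130, adjusted p = 0.0024), where 0.841% of all genes had a called lower and 0.536% a called higher interaction.

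The Gm5506_1 row held most of the signal of the locus. In the M-BKO response and in both genotype differences it moved opposite to the Eno1 row, whereas in WT both rows had a log2 fold change above 0 after M1 (0.27 for Eno1 and 0.11 for Gm5506_1, adjusted p = 0.090 for the latter). It was 1107, 1038 and 963 TPM in WT control and 1050, 1154 and 1139 TPM in WT M1 cultures. In M-BKO it was 957, 860 and 961 TPM in control and 1182, 1210 and 1229 TPM in M1 cultures. The share of the Eno1 row in both rows was 23.9 ± 1.28% in WT control, 26.1 ± 2.84% in WT M1, 30.5 ± 2.83% in M-BKO control and 17.3 ± 1.75% in M-BKO M1 cultures (SD, n = 3).

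Summed, the rows gave 1361 ± 84.4 TPM in WT control, 1507 ± 54.4 in WT M1, 1332 ± 41.8 in M-BKO control and 1460 ± 17.4 in M-BKO M1 cultures (SD, n = 3). The sum was higher after M1 in both genotypes at under 1.5-fold. Its log2 fold change was 0.15 in WT (adjusted p = 0.0067), and 0.13 was measured in M-BKO (adjusted p = 0.013). Its interaction was -0.015 (95% interval -0.15 to 0.12, adjusted p = 0.93). The fall of the Eno1 row in M-BKO and its interaction were not present in the sum, an alternative chosen after its values were seen. In WT control cultures the sum was near the 1374 ± 23.8 TPM of Ldha (SD, n = 3).

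**Figure D3:**
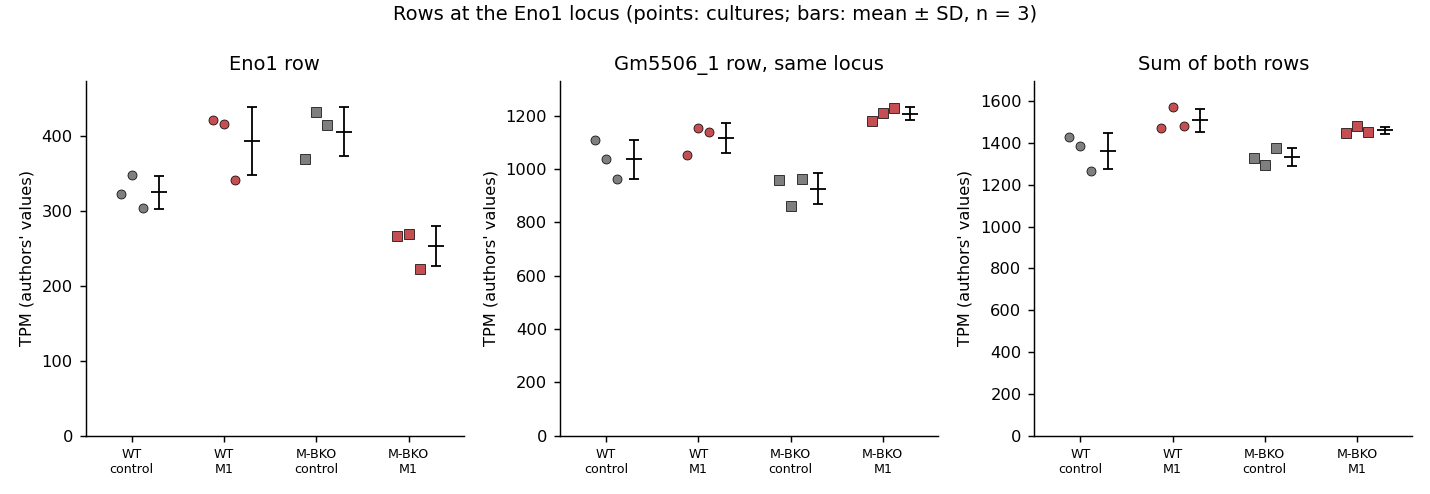
TPM (vertical axes, each from 0) of the Eno1 row, the Gm5506_1 row at the same locus and their sum in the 4 groups; points are cultures and bars show the mean ± SD (n = 3). The Eno1 row was lowest and the Gm5506_1 row highest in M-BKO M1, and the sums of the 4 groups lay between 1267 and 1570 TPM.

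Other members also have near copies. Of the distinct 50-base words, 68.0% were shared with other genes for Pgk1 (mainly Pgk1-rs7), 58.4% for Gapdh (with 222 other genes) and 41.5% for Pgam1 (Pgam1-ps2). The share was 10.4% for Ldha, 6.83% for Tpi1, 6.57% for Aldoa and 0.197% for Eno2. It was 0 for Aldoc and Slc16a3, so that the 3 genes with the strongest M1 responses were also those least exposed to shared reads. The TPM of Pgk1, Gapdh and Pgam1 are less certain for this reason, and the effect on them was not tested.

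M-BKO was then compared with WT within each treatment, by adjusted p alone. The M-BKO cells also carried Lyz2-Cre, and Lyz2 was at most 0.00788% of their TPM. Loss of Bmal1, presence of Cre and lower Lyz2 therefore cannot be told apart in these comparisons. After M1, all 10 genes had a log2 difference below 0 (M-BKO over WT), with a median of -0.072 where the median of all genes was 0.033. Of all genes, 39.3% were below 0. Only the Eno1 row was called (-0.63, SE 0.0921, adjusted p = 9.6e-04), and 2.45% of all genes were called lower and 5.87% higher. The summed enolase rows differed by -0.046 (95% interval -0.14 to 0.051, adjusted p = 0.57). Tpi1 was 1600, 1660 and 1548 TPM in WT M1 and 1481, 1503 and 1467 TPM in M-BKO M1 cultures, without overlap (-0.11, 95% interval -0.18 to -0.037, adjusted p = 0.063). The M-BKO libraries were also below the WT libraries without overlap for Aldoc and Gapdh, so that 4 of the 10 genes, the Eno1 row included, were lower without overlap, against 11.1% of all genes, and 0 were higher, against 20.8%.

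Ldha differed between the genotypes after M1 by -0.063 (95% interval -0.13 to 0.0049, adjusted p = 0.23) and Slc16a3 by -0.12 (95% interval -0.27 to 0.026, adjusted p = 0.29). Eno2 differed by -0.047 (95% interval -0.22 to 0.13, adjusted p = 0.77). For Ldha, Slc16a3 and Eno2 no difference was called, and the intervals reach up to 0.0049, 0.026 and 0.13 on the log2 scale. The other lactate carrier Slc16a1, described below, was called higher (0.28, limma adjusted p = 0.044). That call was lost after median-ratio scaling (0.23, adjusted p = 0.058).

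Without LPS, 7 of the 10 genes were below 0 in M-BKO, against 22.7% of all genes. Their median was -0.042 where the median of all genes was 0.065. Tpi1 was the only gene called, at 1287, 1325 and 1255 TPM in WT and at 1160, 1166 and 1191 TPM in knockout cultures (-0.14, SE 0.0342, adjusted p = 0.034), and 1.12% of all genes were called lower and 4.56% higher. This call was lost when WT control replicate 1 or 2, M-BKO control replicate 1, 2 or 3, or M-BKO M1 replicate 1 was left out (adjusted p up to 0.13). Pgk1 (-0.17, adjusted p = 0.082), Pgam1 (-0.068, adjusted p = 0.22) and Ldha (-0.062, adjusted p = 0.29) were also lower without overlap, which makes 4 of 10 with Tpi1, against 3.68% of all genes. The Eno1 row was higher without overlap (0.32, adjusted p = 0.063), against 22.6% of all genes, and its sum with Gm5506_1 was at -0.030 (adjusted p = 0.75).

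Slc16a3 without LPS was at -0.12 (adjusted p = 0.36), with WT control replicate 3 at 107 TPM below all 3 M-BKO controls. Without that library Slc16a3 was called lower in M-BKO, at -0.22 without LPS (adjusted p = 0.0087) and at -0.12 after M1 (adjusted p = 0.048). Tpi1 after M1 was called as well (adjusted p = 0.017). That library does not enter the estimates after M1, only the spread that the fit pools over the groups. Without it the calls over all genes after M1 also went from 635 higher and 265 lower to 1267 and 528.

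Because Lyz2 itself fills over 3% of WT control libraries, the share left for other genes differs with genotype. With Lyz2 left out of the total, Tpi1 was at -0.18 without LPS (adjusted p = 0.0073) and called after M1 too (-0.13, adjusted p = 0.033), and Pgk1 was called lower without LPS (-0.21, adjusted p = 0.038). After median-ratio scaling, all 10 genes were below 0 after M1 (median -0.12) and 9 of 10 without LPS (median -0.11), where 53.2% and 49.6% of all genes were below 0. On that scale 2 genes were called lower in each treatment, against 4.4% and 1.74% of all genes. Those were Tpi1 and the Eno1 row after M1, and Tpi1 and Pgk1 without LPS. None of the 10 genes was called higher in M-BKO after median-ratio scaling, against 3.85% of all genes after M1 and 1.32% without LPS. The Eno1 row remained the 1 gene of the 10 with a called interaction (-0.93, adjusted p = 0.0036), in the lower direction as for 0.721% of all genes.

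**Figure D4:**
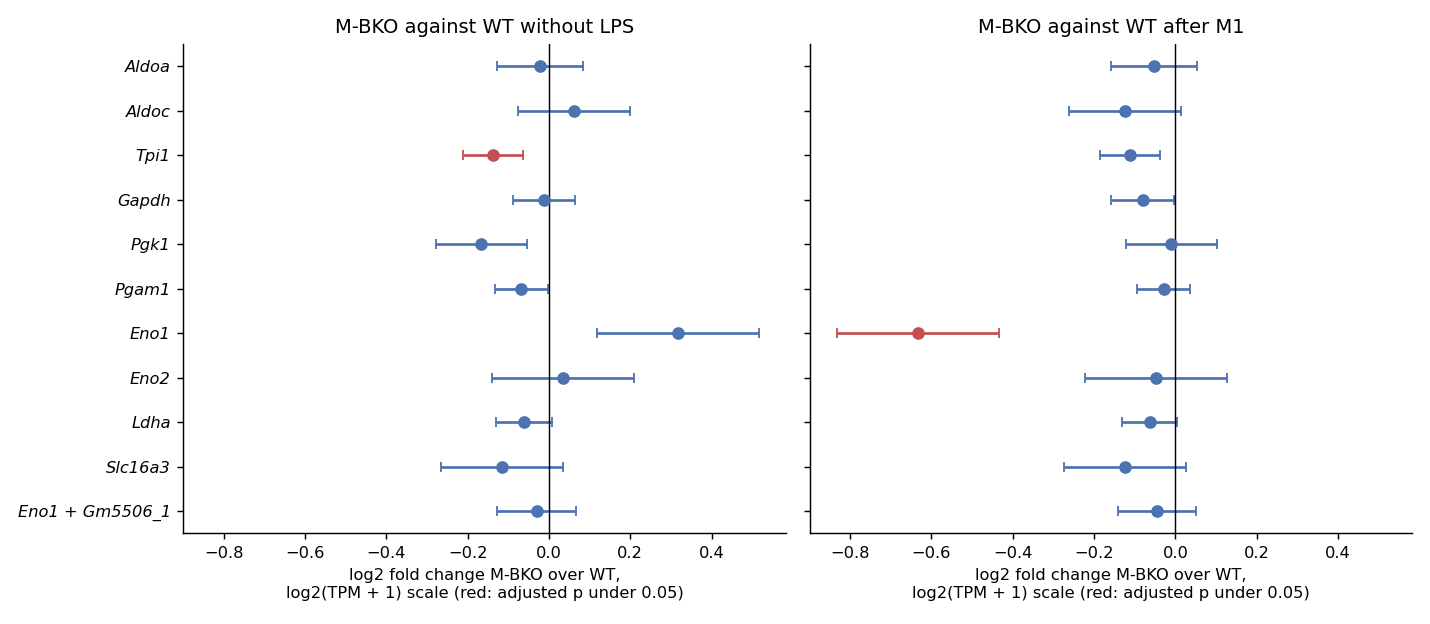
Log2 difference of M-BKO over WT on the log2(TPM + 1) scale (horizontal axis, with 95% intervals) for the 10 genes and the summed enolase rows (vertical axis), without LPS (left) and after M1 (right); red marks an adjusted p under 0.05. After M1 all 10 genes lie left of 0 and the Eno1 row stands apart at -0.63, whereas the summed rows lie at -0.046.

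For a step with 2 isozymes, the balance between them can be read within a library. The pseudocount of 1 TPM shrinks the shift of such a ratio for genes near that level, such as Ldhb and Eno2, whose shares of TPM are given beside it. The 4 log2 ratios of (TPM + 1) were tested by an exact permutation test within genotype or treatment (two-sided, 400 arrangements, smallest possible p = 0.005), with adjustment over 8 tests. All 4 ratios shifted with M1 at that smallest p (adjusted p = 0.01).

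Aldoc gave 1.05 ± 0.0226% of the aldolase TPM of Aldoa and Aldoc in WT control and 0.300 ± 0.000219% in WT M1 cultures (SD, n = 3). In M-BKO it gave 1.12 ± 0.0200% and 0.282 ± 0.0233%. The log2 ratio of Aldoc to Aldoa moved by -1.77, and Aldoa carried nearly all aldolase transcripts throughout. The tissue-restricted paralogs Gapdhs, Pgk2, Pgam2 and Ldhc of other steps were listed at 0 in all libraries.

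Eno2 gave 0.137 ± 0.0108% of the enolase TPM of Eno1, Gm5506_1 and Eno2 in WT control and 0.990 ± 0.103% in WT M1 cultures. In M-BKO it gave 0.145 ± 0.00750% and 0.985 ± 0.0663%. Even after its rise Eno2 was thus a small share of enolase transcripts. Against the Eno1 row alone, the log2 ratio moved by 2.65, and against the sum of both rows by 2.30. Eno3, the muscle enolase, was 3.39 ± 0.0638 TPM in WT control and 4.88 ± 0.619 TPM in M-BKO control cultures (log2 0.42, adjusted p = 0.011). After M1 it was lower by under 1.5-fold and not called, at -0.25 in WT (adjusted p = 0.012) and -0.57 in M-BKO (adjusted p = 1.9e-05). Median-ratio scaling gave 0.11 (adjusted p = 0.27) and -0.18 (adjusted p = 0.071). Eno4, an enolase described in sperm, rose by 0.89 in WT and 0.98 in M-BKO but stayed near 1.66 ± 0.179 TPM in WT M1 cultures.

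Ldhb, the heart-type lactate dehydrogenase subunit, fell in both genotypes. Its log2 fold change was -0.91 in WT (adjusted p = 5.1e-06), against -1.14 in M-BKO (adjusted p = 4.7e-07). Its share of Ldha and Ldhb went from 0.182 ± 0.0243% to 0.0549 ± 0.00979% in WT and from 0.249 ± 0.0537% to 0.0621 ± 0.0113% in M-BKO. The log2 ratio of Ldhb to Ldha moved by -1.21 with M1, and by -1.76 with a pseudocount of 0.1 TPM. It was higher in M-BKO by 0.23 (exact permutation p = 0.045, adjusted p = 0.072), at Ldhb levels of 3.28 ± 0.657 TPM or less.

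Slc16a1, or Mct1, the transporter with higher affinity for lactate, gave 5.52 ± 1.07% of the TPM of Slc16a1 and Slc16a3 in WT control and 2.55 ± 0.161% in WT M1 cultures. In M-BKO it gave 5.57 ± 0.397% and 3.40 ± 0.110%. The log2 ratio of Slc16a1 to Slc16a3 moved by -0.98 with M1. The genotype difference of this ratio was 0.22 (exact permutation p = 0.06, adjusted p = 0.08), made of 0.038 in controls and 0.40 after M1. The ratio of Aldoc to Aldoa was not called between genotypes (0.0071, exact permutation p = 0.885). That of Eno2 to the Eno1 row was not called either (0.15, exact permutation p = 0.36), but it averages -0.28 in controls and 0.59 after M1. Against the sum of both rows the Eno2 ratio differed by 0.031 (exact permutation test, adjusted p = 0.66).

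**Figure D5:**
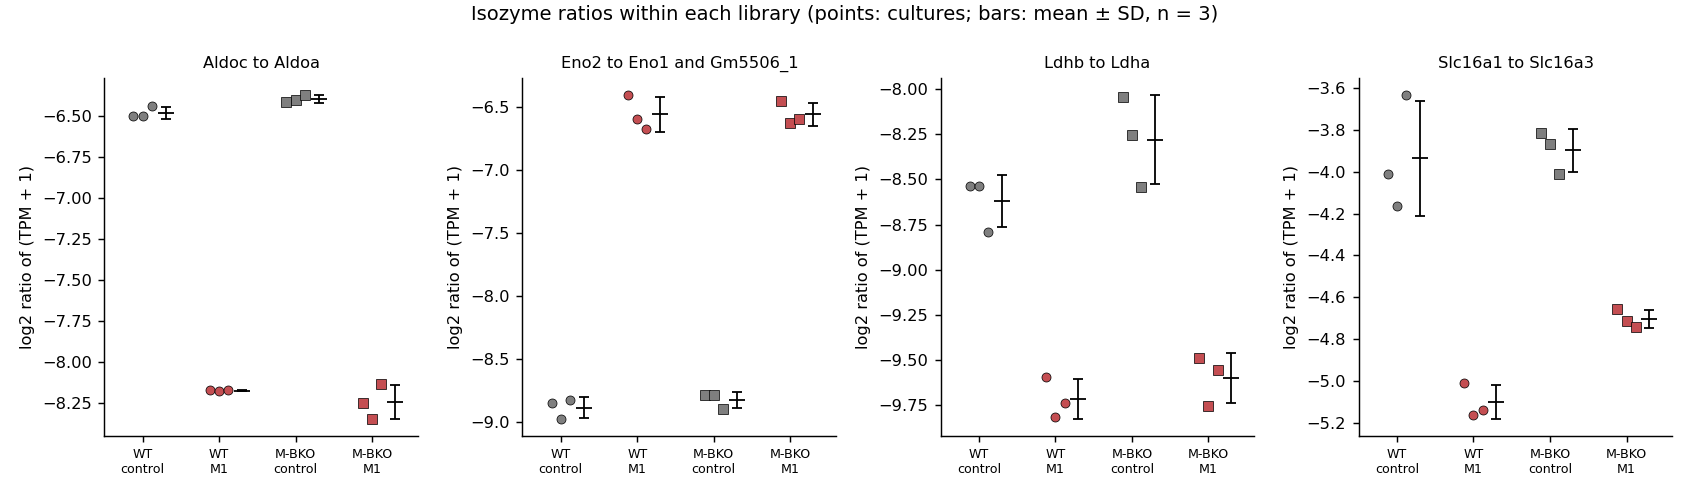
Log2 ratio of (TPM + 1) of 2 isozymes within each library (vertical axes) in the 4 groups; points are cultures and bars show the mean ± SD (n = 3), and the enolase panel uses the sum of the Eno1 and Gm5506_1 rows. The ratio of Eno2 rose from near -8.89 to -6.56 in WT, and the other 3 ratios were lower in all 6 M1 libraries than in all 6 controls.

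Summed over the isozymes of a step, the rise of transcripts after M1 was uneven along the route. The ratio of mean TPM, M1 over control, was 2.37 in both genotypes for lactate transport. It was 1.34 in WT and 1.37 in M-BKO for phosphoglycerate mutase and 1.22 and 1.36 for phosphoglycerate kinase. Triosephosphate isomerase was at 1.24 and 1.27, aldolase at 1.19 and 1.16, glyceraldehyde-3-phosphate dehydrogenase at 1.16 and 1.11, lactate dehydrogenase at 1.14 and 1.13, and enolase at 1.12 and 1.10. Pyruvate kinase, which makes the pyruvate, was at 1.05 and 0.971. These sums are ratios of shares and move together with the scaling.

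In the rest of the pathway, glucose entry and upper glycolysis had 5 of 14 tested genes called higher and 4 lower after M1 in WT, against 12.9% and 41% of all genes. In M-BKO 4 were higher and 4 lower, against 12.3% and 42.3%. After median-ratio scaling 7 were higher and 3 lower in each genotype. The shares of all genes were then 22.9% higher and 21.1% lower in WT, and 22.4% and 22.1% in M-BKO. The glucose transporters Slc2a1 (1.89 in both genotypes) and Slc2a6 (1.85 and 1.83) rose on the log2 scale. Pfkfb3, which makes the activator of phosphofructokinase, rose by 2.21 and 2.09, and Pfkl, the liver-type phosphofructokinase, by 1.07 and 1.06. Pfkm, the muscle type, fell (-1.79 and -1.76), as did Pfkfb4 (-1.60 and -1.74) and Pfkfb2 (-1.48 and -1.50). Pfkfb1 fell in WT (-0.74) and the glucose transporter Slc2a3 in M-BKO (-0.85), calls that median-ratio scaling ended (-0.46 and -0.54, under 1.5-fold). Pfkl and Pfkm, like Aldoa and Aldoc, are isozymes of 1 step that moved in opposite directions in both genotypes. Hk2, a hexokinase, rose by 0.83 in WT and by 0.57 in M-BKO, the latter under 1.5-fold and not called. After median-ratio scaling both rises were called (1.30 and 1.06). Pfkp, the platelet type, was lower in M-BKO both after M1 (-0.20, adjusted p = 0.0044) and without LPS (-0.21, adjusted p = 0.0042). Hk2 was higher in M-BKO without LPS (0.21, adjusted p = 0.049), a call lost after median-ratio scaling (0.14, adjusted p = 0.24). Of all genes, 2.45% were called lower in M-BKO after M1, and 1.12% lower and 4.56% higher without LPS.

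Of the 6 other carrier genes tested, 0 were called higher after M1 in either genotype by adjusted p and fold together, where 12.9% of all genes in WT and 12.3% in M-BKO were. By adjusted p alone 3 were higher in each genotype, against 22.4% of all genes in WT and 21.2% in M-BKO. Median-ratio scaling also left 3 called higher in each, where the shares of all genes were 22.9% and 22.4%. By adjusted p and fold on TPM as deposited, 1 of the 6 was lower in WT and 2 in M-BKO, against 41% and 42.3% of all genes. Slc16a7, or Mct2, fell by 2.09 in WT and by 1.97 in M-BKO, and Mpc2, a part of the mitochondrial pyruvate carrier, fell by 0.77 in M-BKO, a call lost after median-ratio scaling (-0.29). Slc16a1 (0.28, adjusted p = 0.044) and Emb, a partner protein of monocarboxylate transporters (0.29, adjusted p = 0.017), were higher in M-BKO after M1. These were 2 of the 6, against 5.87% of all genes called higher in that comparison. The Slc16a1 call was lost after median-ratio scaling (0.23, adjusted p = 0.058). Bsg, the partner protein of Slc16a3, was 294 ± 8.86 TPM in WT control and 299 ± 3.11 TPM in WT M1 cultures and was not called. Bpgm, which diverts 1,3-bisphosphoglycerate, fell by 1.46 and 1.73.

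Of 8 tested genes of the pyruvate dehydrogenase step, limma called 0 higher and 3 lower in each genotype. The 3 were Pdha1 (-1.04 and -0.98) and Dlat (adjusted p = 9.8e-10 in WT), which encode parts of the complex, and the kinase Pdk2 (-1.39 and -1.45). By adjusted p alone, 0 were higher in WT and 2 in M-BKO, against 22.4% and 21.2% of all genes. Pdk3, a further kinase (0.28, adjusted p = 0.022), and Pdp1, a phosphatase of the complex (0.33, adjusted p = 0.013), were higher in M-BKO after M1. These were 2 of the 8, against 5.87% of all genes called higher in that comparison. For the M1 response, 41% of all genes in WT and 42.3% in M-BKO were called lower, near the share of this list, and 12.9% and 12.3% higher. After median-ratio scaling only Pdk2 of the 8 was called lower after M1 in each genotype, against 21.1% and 22.1%. Of 16 tested Hif-1 pathway genes outside glycolysis, 9 were called higher and 1 lower in WT, against 12.9% and 41% of all genes. In M-BKO 10 were higher and 1 lower, against 12.3% and 42.3%. After median-ratio scaling 13 were higher and 1 lower in each genotype, where 22.9% and 21.1% of all genes were in WT. In M-BKO 22.4% and 22.1% of all genes were. Hif1a itself rose by 1.59 and 1.67 and Egln3, a prolyl hydroxylase, by 2.56 and 2.67. Adm, a secreted peptide gene, went from 0.382 ± 0.203 to 21.3 ± 4.07 TPM in WT (SD, n = 3) and rose by 3.45 in M-BKO. Car9, a carbonic anhydrase, fell (-1.03 and -1.28). Ndrg1, a stress-induced gene, rose by 1.80 in WT and 1.25 in M-BKO, and was lower in M-BKO after M1 (-0.33, adjusted p = 0.012). It was the 1 gene of the 16 called lower there, against 2.45% of all genes.

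Across the 12 libraries, the genes whose log2(TPM + 1) followed a member most closely were chosen among 8084 named genes with a mean of at least 5 TPM, as a description without a test. The points share the M1 contrast, which sets control and M1 libraries apart for all of these genes. Slc16a3 was closest to H2afb1 (r = 0.998), Pfkl (r = 0.997) and H2-T3 (r = 0.997), and Eno2 to Kdm6b, Slc11a2 and Mllt6 (r = 0.999, 0.999 and 0.998). Aldoc was closest to Ndst2, Lrrk1 and Myo18a (r = 0.999, 0.999 and 0.998). Ldha followed Scimp (r = 0.985), Slfn1 (r = 0.970) and Oas2 (r = 0.970), and Aldoa followed H2-Ke2, Sepw1 and Zfp513 (r = 0.976, 0.976 and 0.973). Among the members, Tpi1 and Ldha had r = 0.983, and the Eno1 row had r between -0.45 and 0.40 with each of the others.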

How the data were processed

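RNA was sequenced from 12 cultures in 4 groups of 3. Per the study's methods, stranded mRNA libraries were sequenced (Illumina), trimmed and mapped with CLC Genomics Workbench (version and annotation not given in the sources used here), allowing up to 5 matches per read. The submitters' processing notes name the build mm10. The authors deposited TPM, used here as given. 2 other deposited tables hold the authors' fold changes with p-values and unlabelled ratios, and were not used.

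TPM were tested as log2(TPM + 1) with limma 3.58.1 (R 4.3.3), with a mean-variance trend, 4 group means and Benjamini-Hochberg adjustment over the 10822 rows that reached 1 TPM in 3 or more libraries. Calls needed an adjusted p under 0.05 and, for M1 responses only, over 1.5-fold. Since the depth behind TPM is unknown, no counting interval is given. The code was tested on simulated data. The members and lists were chosen with earlier results of these data known. Named are the 10 members, their paralogs, called genes of the pathway lists (up to 4 per direction by adjusted p) and the 3 closest genes of 5 members. Alternatives changed the pseudocount, filter, scaling, variance model, samples and fold rule.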

Additional observations from a re-analysis of the deposited data

Results flagged for a closer look

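The interaction of genotype and M1 was called for the Eno1 row (-0.95 on the log2 scale, SE 0.130, adjusted p = 0.0024), meaning that its M1 response differed between M-BKO and WT. The sum with the Gm5506_1 row at the same locus had an interaction of -0.015 (adjusted p = 0.93).

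Ndrg1, of the Hif-1 list, had an interaction of -0.55 (adjusted p = 0.016): it was 33.9 ± 3.98 and 121 ± 2.53 TPM in WT control and M1 cultures, and 39.6 ± 2.92 and 95.6 ± 2.64 TPM in M-BKO (SD, n = 3). After median-ratio scaling its interaction was -0.53 (adjusted p = 0.017).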

How the results depend on the processing

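The M1-response calls for Slc16a3, Eno2 and Aldoc kept their direction in every alternative run. The counts of members called in the M1 responses of WT and M-BKO did not move when single libraries were left out. Median-ratio scaling gave 9 members higher in WT, 8 higher and 1 lower in M-BKO, and 2 lower in M-BKO after M1 and 2 without LPS. Shares of all genes were 22.9% higher in WT, 22.4% higher and 22.1% lower in M-BKO, and 4.4% and 1.74% lower between genotypes. Swapping the fold rule between comparisons gave 9 higher in WT and 8 in M-BKO after M1, and 0 lower without LPS. Of all 10822 genes, 2424 and 2290 were then higher after M1, and 14 lower without LPS. Quantile normalization gave 2 lower in M-BKO after M1, where 369 of all 10822 genes were lower. Leaving Lyz2 out of the total gave 2 lower in each treatment, where 322 genes were lower after M1 and 152 without LPS. Leaving out the 50 most abundant genes gave 1 lower in the M-BKO response, where 3999 of all genes were lower. It also gave 2 lower in M-BKO in each treatment, where 328 genes were lower after M1 and 157 without LPS. No filter, no variance trend, or fitting only the groups compared each gave 0 lower without LPS. Of all genes, 110 of 15894, 96 of 10822 and 56 of 10822 were then lower.

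Summing the Eno1 and Gm5506_1 rows (chosen after seeing the data) turned the M-BKO response from -0.68 to 0.13, also with Gm5506_2 added (0.13), and to 0.63 with median-ratio scaling, where the interaction was 0.0040. The members called lower then numbered 1 in the M-BKO response, and 0 in M-BKO against WT after M1 and for the interaction. Of all 10821 genes, 4581, 264 and 90 were lower in these comparisons. With scaling as well, 9 members were higher in each genotype after M1. Against WT, 1 was lower in M-BKO after M1, 2 were lower without LPS and 0 had an interaction. Of all 10821 genes, 2479 and 2424 were then higher after M1 in WT and M-BKO. Against WT, 476 were lower in M-BKO after M1 and 188 without LPS, and 73 had a higher and 76 a lower interaction. With a pseudocount of 5, the Ldhb to Ldha ratio was higher in M-BKO by 0.14 (exact permutation test, adjusted p = 0.048).

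Leaving out 1 library at a time, the members called lower in M-BKO ranged from 1 to 3 after M1 and from 0 to 2 without LPS, those called higher without LPS from 0 to 1, and the Ldhb to Ldha genotype ratio from 0.17 to 0.29, and that of Slc16a1 to Slc16a3 from 0.16 to 0.29. The upper ends of the lower counts came without WT control replicate 3. All genes called lower then numbered 528 after M1 and 144 without LPS, against 265 and 121 as reported. Eno1 was called higher without LPS when WT M1 replicate 3 (adjusted p = 0.040) or M-BKO M1 replicate 3 (adjusted p = 0.047) was left out. All genes called higher then numbered 396 and 419, against 494 as reported. Replicate numbers were not used as pairs in the main fit. Same-numbered libraries had r of -0.25 to 0.26 between deviations from their group means, and 5 of 12 were closest to their own number. Whether the numbers mark pairs cannot be settled from these values. With the replicate block, 1 member was called higher without LPS, the Eno1 row (0.32, adjusted p = 0.023), and no other member's call changed. The SE of that difference was 0.0698 with the block and 0.0921 as reported. Of all genes, 435 were then called higher without LPS. The causes of these changes were not tested. TPM carry no depth, so the precision of low genes such as Eno2 and Ldhb is known only from the 3 cultures.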
